A study of Rattus norvegicus with 31 samples.

Results

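Bdh1, Oxct1, Acat1 and Aacs, which encode enzymes of ketone body synthesis and use, were followed in the liver and in white and brown adipose tissue (WAT and BAT) of rats fed diets with a different balance of carbohydrate and fat. The genes were chosen by name as enzymes of this pathway, and a probe set was taken where it is annotated to a member gene alone. This gave 6 of 31042 probe sets on a GeneChip rat genome array, for 4 of 14217 named genes. Bdh1 and Acat1 have 2 probe sets each, and Oxct1 and Aacs have 1 each. A gene with 2 probe sets is represented by the one with the higher mean in the tissue unless the other is named.

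Male Wistar rats were 3 weeks old at the start and first had chow for a week. They then ate the diets freely for a week, and after that with matched energy intake for 9 weeks. The L-group diet drew 65% of its energy from carbohydrate and 15% from fat, the M-group diet 60 and 20%, and the H-group diet 35 and 45%. In those 9 weeks the M- and H-groups were given the energy intake of the L-group. Food was withheld from every rat for 17 h before dissection, so no fed rat was measured. Arrays covered the liver of 5 L-group rats (L1 to L5), 4 M-group rats (M6, M8, M9, M10) and 4 H-group rats (H12, H13, H15, H16), and WAT and BAT of the same L- and H-group rats, with 1 array for each rat and tissue. Within a tissue, each array stands for a separate animal.

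Ketone bodies are made from fatty acids in the mitochondria of the liver during fasting and are burned in other tissues. Acat1 is the mitochondrial thiolase that joins acetyl-CoA into acetoacetyl-CoA in synthesis and splits it again in use. Bdh1, 3-hydroxybutyrate dehydrogenase, interconverts acetoacetate and 3-hydroxybutyrate, the main circulating ketone body. Oxct1, succinyl-CoA:3-ketoacid CoA transferase, activates acetoacetate in the mitochondria of tissues that oxidize ketone bodies, and the liver is known for having little of it. Aacs, acetoacetyl-CoA synthetase, activates acetoacetate in the cytosol, where the product can enter fatty acid and sterol synthesis.

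In the RefSeq annotation of the rat assembly GRCr8, Bdh1 lies at chr11:82806125-82848133, Oxct1 at chr2:54963964-55112303, Acat1 at chr8:62876003-62905080 and Aacs at chr12:36774471-36817835. Promoter windows of 300 bases, from 250 before to 50 after the RefSeq start, were matched by symbol for all 4 genes. Positions are counted from that start. It lies at the outer end of the gene's annotated span for Oxct1, but inside the span in the windows of Acat1, Aacs and, farthest inside, Bdh1. Those of Bdh1 and Oxct1 are printed because these genes had opposite tissue patterns, and that of Aacs because its diet differences had the smallest p in both adipose tissues. Letters found in the search are in capitals.
Bdh1, chr11:82842587-82842886, minus strand: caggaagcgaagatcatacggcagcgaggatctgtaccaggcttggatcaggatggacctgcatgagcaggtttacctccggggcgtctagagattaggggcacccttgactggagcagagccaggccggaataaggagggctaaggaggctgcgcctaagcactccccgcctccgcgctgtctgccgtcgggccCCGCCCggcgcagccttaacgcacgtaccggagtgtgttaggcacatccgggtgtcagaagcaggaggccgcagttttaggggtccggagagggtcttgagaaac
Oxct1, chr2:54963714-54964013, plus strand: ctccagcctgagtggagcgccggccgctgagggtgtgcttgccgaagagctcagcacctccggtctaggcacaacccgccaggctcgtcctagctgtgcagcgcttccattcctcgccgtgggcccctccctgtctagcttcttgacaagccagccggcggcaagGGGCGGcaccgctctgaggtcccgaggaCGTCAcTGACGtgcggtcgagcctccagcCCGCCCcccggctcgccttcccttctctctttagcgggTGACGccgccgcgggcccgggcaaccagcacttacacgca
Aacs, chr12:36817725-36818024, minus strand: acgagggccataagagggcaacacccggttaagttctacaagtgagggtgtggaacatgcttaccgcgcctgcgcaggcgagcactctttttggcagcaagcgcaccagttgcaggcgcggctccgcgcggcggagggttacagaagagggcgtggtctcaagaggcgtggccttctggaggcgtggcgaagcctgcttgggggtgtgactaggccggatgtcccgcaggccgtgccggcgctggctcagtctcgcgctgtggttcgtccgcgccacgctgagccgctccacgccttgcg
The windows were searched on both strands for the GC box GGGCGG, the CCAAT box CCAAT, the E-box CACGTG, the cAMP response element core TGACG, the sterol regulatory element TCACNCCAC and the DR1 element, the direct repeat bound by PPAR and related receptors. Bdh1 held 1 GC box, first base 55 bases before the start. Oxct1 held 2 GC boxes, 85 and 28 bases before the start, and 3 cAMP response element cores. The cores begin 57 and 51 bases before and 11 bases after the start. None of the 6 motifs was matched in the Aacs window. Of 33469 promoter windows of the same length, 33.1% held the GC box, 37.5% the CCAAT box, 6.42% the E-box, 21.2% the cAMP response element core, 1.12% the sterol regulatory element and 0.0538% the DR1 element. The GC content of the windows was 62% for Bdh1, 69% for Oxct1 and 66% for Aacs, against a median of 51.7% over all windows. The matches describe letters and not bound sites.

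All values are log2 values as deposited, and each tissue was normalized on its own by a different method, so a log2 value of one tissue cannot be set against that of another. Probe sets that held 1 value on every array of a tissue (25762 in WAT and 10370 in BAT) cannot show a difference and were not tested. The lowest possible value in BAT was 2.29. Tissue markers came from fixed lists. The 6 hepatocyte markers averaged 12.5 to 12.7 in liver. Of the white adipocyte markers in WAT, Adipoq was 13.2 to 13.4 and Lep 9.13 to 10.9. Plin1, Fabp4 and Cidec held 1 value each there (12.4, 13.8 and 12.9). Adipoq read 13.1 to 13.8 in BAT as well, so it does not mark WAT alone. Of the brown adipocyte markers in BAT, Ucp1 was 14.4 to 14.9, Cidea 14.5 to 14.8 and Dio2 6.35 to 8.69. Cox7a1 was near the lowest value, at 2.98 to 3.57, and Elovl3 stayed at it. Cidea also read 10.1 to 11.7 in WAT and 7.01 to 9.16 in liver, so it does not mark BAT alone. Ucp1, Dio2, Cox7a1 and Elovl3 held 1 value each in WAT. The hepatocyte marker Alb read 7.83 to 12.7 in WAT and 12.6 to 13.4 in BAT. The other hepatocyte markers, Apoa1, Tat, Cps1, Cyp2e1 and Serpina1, held 1 value each in WAT. In BAT Cyp2e1 read 5.83 to 8.27, while Apoa1, Tat, Cps1 and Serpina1 lay at or near the lowest value. Skeletal muscle markers, of which 6 of 7 were measured, averaged 5.52 in the BAT of rat H13 and 6.80 in that of rat H15, against 2.31 in the other 7 rats. Fewer cells of a type and less RNA per cell cannot be told apart in these whole tissues.

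The members differed in where they were high. To describe this without mixing scales, each probe set was ranked among the 31042 probe sets of its own array. Bdh1 ranked at the 96.5 to 97.3 percentile in liver, and its other probe set at 95.9 to 96.9. In WAT both probe sets held 1 value on every array. The brighter one there, which is the dimmer one in liver, held 7.17 and ranked at 49.7 to 50.2, and the other held 6.93 and ranked at 40.8 to 41.1. In BAT both lay at the lowest value, 2.29, on every array. Bdh1 thus gave no diet comparison in WAT, and in BAT it was tested on 1 probe set whose values did not leave the lowest value. Oxct1 ran the other way, at the 39.6 to 48.8 percentile in liver, 98.6 to 99.3 in WAT and 96.5 to 98.4 in BAT. Acat1 was high throughout on its brighter probe set, at 97.9 to 98.7 in liver, 96.1 to 98.2 in WAT and 99.5 to 99.7 in BAT. Its dimmer probe set ranked at 82.9 to 90.3 in liver, 72.2 to 77.7 in WAT and 90.6 to 94.2 in BAT. Aacs was intermediate and ranked at 46.0 to 52.4 in liver, 67.5 to 73.2 in WAT and 77.3 to 81.2 in BAT. The ranges of liver and of each adipose tissue did not overlap for Bdh1, Oxct1 or Aacs. Those of Acat1 in liver and WAT overlapped on the brighter probe set but not on the dimmer one. Ranks depend on the method that made the values, so these are descriptions with no test.

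**Figure D1:**
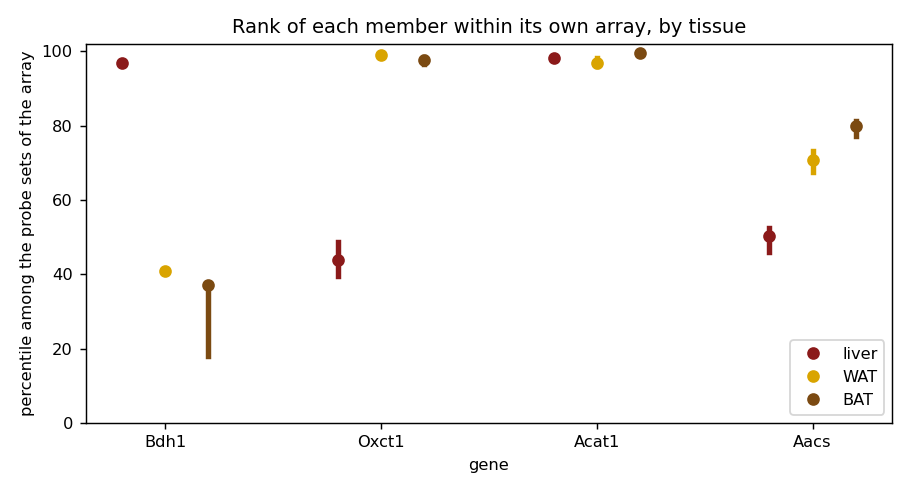
Percentile of each gene's probe set (the brighter one in liver, used in all tissues) among the 31042 probe sets of its own array, by tissue; the point is the median over arrays and the bar runs from the lowest to the highest array. Bdh1 is near the top in liver alone, Oxct1 in both adipose tissues, and Acat1 in all of them.

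Bdh1 was nearly level across the diets in liver. The L-group read 10.20, 10.22, 10.17, 10.17 and 10.29, the M-group 10.25, 10.27, 9.99 and 10.13, and the H-group 10.37, 10.18, 10.04 and 10.27. The 3 groups overlapped, and the lowest value belonged to rat M9. Means were 10.21 ± 0.05 (SD, n = 5), 10.16 ± 0.13 (SD, n = 4) and 10.22 ± 0.14 (SD, n = 4). The log2 difference was -0.05 from L to M, 0.06 from M to H and 0.01 from L to H, and the 95% interval of the last, -0.15 to 0.16, corresponds to a fold between 0.903 and 1.12. The other probe set gave 9.97, 9.96 and 9.94 for the L-, M- and H-group means. Neither passed limma, with adjusted p from 0.967 to 0.9999.

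Oxct1, the enzyme of ketone body use, was low and level in liver. Means of the L-, M- and H-groups were 4.30 ± 0.05 (SD, n = 5), 4.32 ± 0.21 (SD, n = 4) and 4.32 ± 0.10 (SD, n = 4), and single livers lay between 4.09 and 4.60, both ends in the M-group. In WAT the L-group read 11.81, 11.81, 12.01, 11.63 and 11.44, and the H-group 11.98, 11.61, 11.68 and 11.87. These ranges overlapped almost fully, and the log2 difference of 0.04 (SE 0.13, limma adjusted p = 0.999998) had a 95% interval from -0.25 to 0.34.

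In BAT Oxct1 was higher on average in the H-group, by 1.46-fold, but did not pass either test. The 5 L-group rats read 11.20, 10.55, 10.53, 10.73 and 10.14, and the H-group rats H12, H13, H15 and H16 read 10.88, 11.25, 11.36 and 11.20. The H-group lay above every L-group rat but L1, which fell within its range. The means of 10.63 ± 0.38 (SD, n = 5) and 11.17 ± 0.21 (SD, n = 4) gave a log2 difference of 0.54 (SE 0.21, 95% interval 0.06 to 1.02, limma adjusted p = 0.628). Rank products, a test on the ranks of the ratios between arrays, gave a false discovery rate of 0.113 for higher values in the H-group, and 0.0433 with rat L1 left out.

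The highest Oxct1 values in BAT were in rats H13 and H15, whose BAT arrays alone carried skeletal muscle markers, and muscle is a tissue that uses ketone bodies. Of the 6 muscle markers measured, Acta1 reached 9.13 in BAT against a median of 2.29. Rats H12 and H16, whose muscle markers were at the level of the L-group, read 10.88 and 11.20. With H13 and H15 left out together, the Oxct1 difference was 0.41 (SE 0.28, limma adjusted p = 0.696), and with the muscle marker mean as a covariate it was also 0.41 (SE 0.26, limma adjusted p = 0.643). The part of muscle RNA in the Oxct1 difference was not tested beyond these values.

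**Figure D2:**
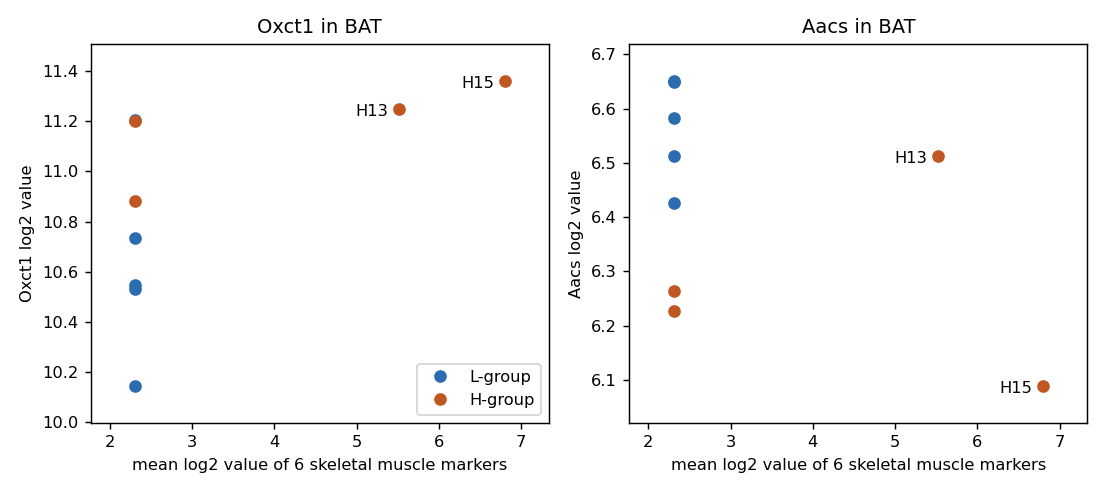
Log2 value of Oxct1 (left) and Aacs (right) in BAT against the mean log2 value of 6 skeletal muscle markers on the same array; each point is 1 rat, by diet group. Rats H13 and H15 stand apart on the muscle axis and hold the highest Oxct1 values, while Aacs was the highest of the H-group in H13 and the lowest in H15.

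Acat1, which serves both directions of the pathway, had no diet difference that passed a test in any tissue. In liver the L-group read 11.30, 10.91, 11.13, 11.12 and 10.91, the M-group 11.08, 11.11, 10.70 and 10.95, and the H-group 10.87, 11.32, 10.95 and 10.99. All groups overlapped, with the lowest value again in rat M9. Means were 11.07 ± 0.17 (SD, n = 5), 10.96 ± 0.19 (SD, n = 4) and 11.03 ± 0.20 (SD, n = 4), and the L to H difference was -0.04 (95% interval -0.28 to 0.20, limma adjusted p = 0.953). In WAT the means were 10.69 ± 0.24 (SD, n = 5) and 10.72 ± 0.36 (SD, n = 4). The H-group value rested on rat H12, at 11.22, and the log2 difference of 0.04 became -0.13 without it.

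In BAT Acat1 read 13.12, 13.02, 13.05, 13.25 and 13.07 in the L-group and 13.15, 13.41, 13.25 and 13.04 in the H-group. The log2 difference was 0.11 (SE 0.08, 95% interval -0.07 to 0.29, limma adjusted p = 0.776), and it was -0.0039 with H13 and H15 left out. Rat H13 had the highest Acat1 of all rats in both liver and BAT, and the lowest in WAT. The dimmer Acat1 probe set gave liver means of 7.94 ± 0.27 (SD, n = 5), 7.63 ± 0.11 (SD, n = 4) and 7.89 ± 0.38 (SD, n = 4), WAT means of 8.21 and 8.23, and BAT means of 8.52 and 8.76 for the L- and H-groups. Its direction was that of the brighter probe set in each of the 5 diet comparisons, and it passed neither test.

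Aacs, which channels acetoacetate towards lipid synthesis, had the smallest p of the members in both adipose tissues, with lower averages in the H-group. In WAT the L-group read 8.03, 8.05, 8.12, 8.02 and 8.02 and the H-group 7.96, 7.88, 7.87 and 7.96. Every H-group rat lay below every L-group rat, although the gap was small. Means of 8.05 ± 0.04 (SD, n = 5) and 7.92 ± 0.05 (SD, n = 4) gave a log2 difference of -0.13 (SE 0.03, 95% interval -0.20 to -0.06), a fold of 0.915, with limma adjusted p = 0.341. Rank products over the 5280 varying probe sets gave a false discovery rate of 1.03 for lower values. When the 25762 probe sets that hold 1 value were ranked too, it was 0.0395. In that setting 334 of 31042 probe sets (1.08%) were called lower in WAT. This share counts the 25762 that cannot show a difference, so it cannot be set against shares over the 5280 varying probe sets.

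In BAT Aacs read 6.58, 6.43, 6.65, 6.51 and 6.65 in the L-group, and 6.26, 6.51, 6.09 and 6.23 in H12, H13, H15 and H16. Of the H-group rats, H13 alone lay within the L-group range. Means of 6.56 ± 0.10 (SD, n = 5) and 6.27 ± 0.18 (SD, n = 4) gave a log2 difference of -0.29 (SE 0.09, 95% interval -0.50 to -0.09), a fold of 0.817, with limma adjusted p = 0.476. The rank products false discovery rate was 0.286. Without the muscle-bearing rats H13 and H15 the difference was -0.32 (limma adjusted p = 0.547), and with the muscle covariate it was -0.28.

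In liver Aacs was low, and the M-group had the lower values. The L-group read 4.76, 4.82, 4.71, 4.80 and 4.70, the M-group 4.65, 4.69, 4.42 and 4.65, and the H-group 4.58, 4.86, 4.78 and 4.70. The L- and M-groups did not overlap, although by a narrow margin, while the H-group overlapped both. The log2 difference was -0.16 from L to M (SE 0.07, limma adjusted p = 0.9999), 0.13 from M to H (SE 0.07, adjusted p = 0.887) and -0.03 from L to H (SE 0.07, adjusted p = 0.937). Rat M9 held the lowest value, and without it the L to M difference was -0.10.

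**Figure D3:**
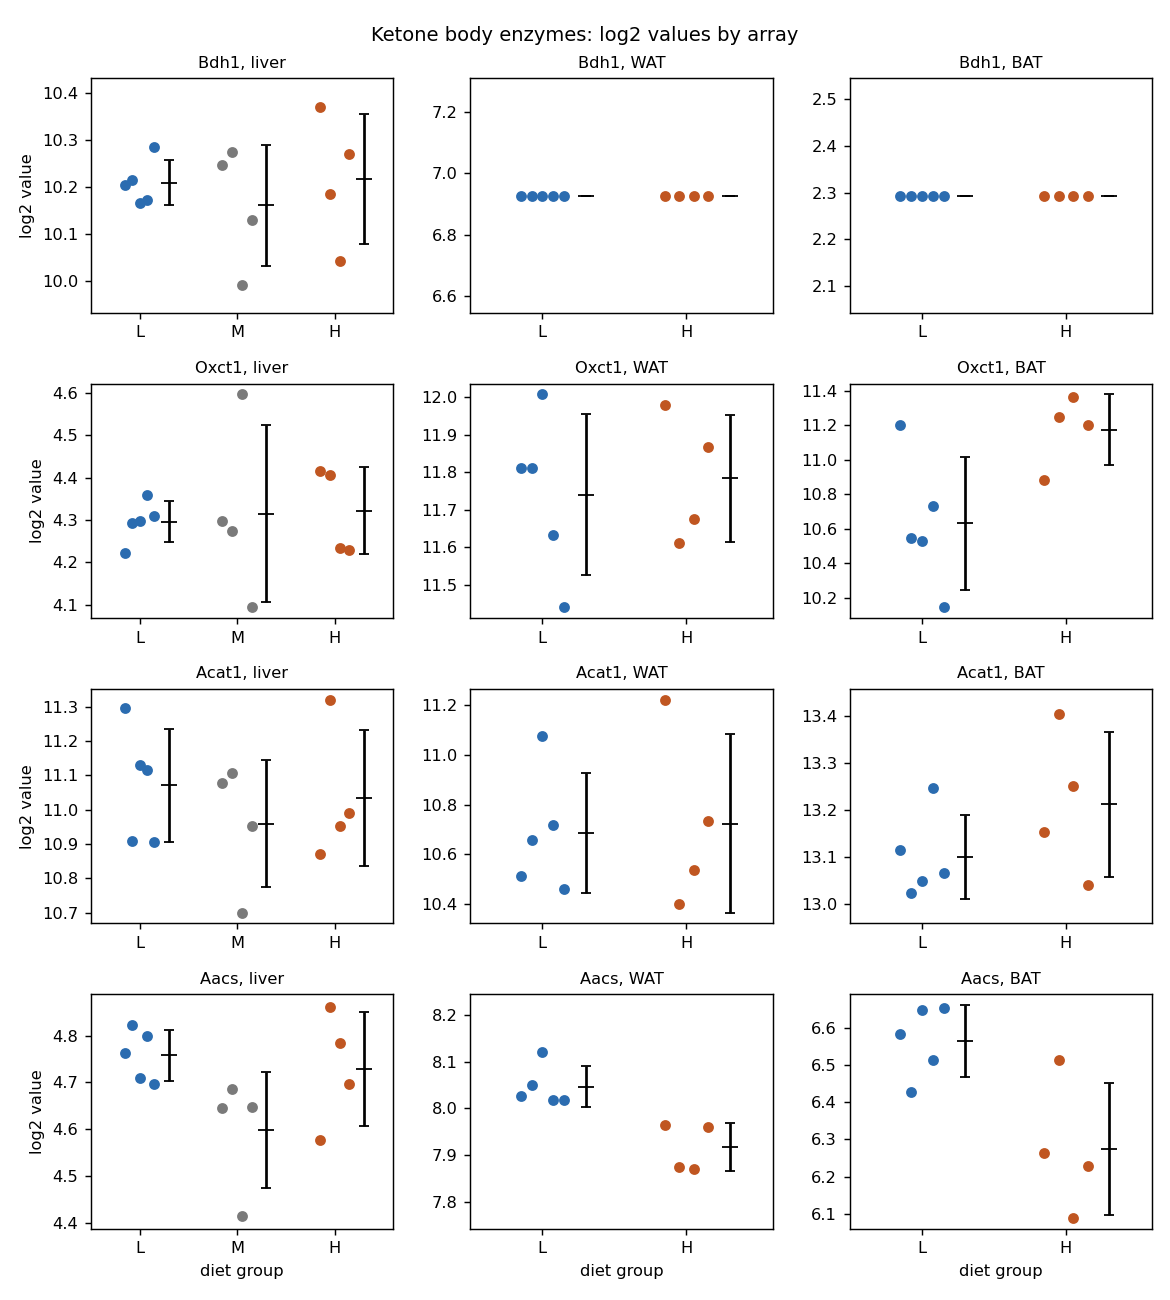
Log2 values of the 4 genes on each array (points) by tissue and diet group, on the brighter liver probe set of each gene, with the mean and SD beside them; the scales differ between panels. Bdh1 is a flat line in both adipose tissues, and the clearest separation of the groups is that of Aacs in WAT.

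Over the members, no probe set passed limma at an adjusted p under 0.05 in any diet comparison. In liver 0 of 6 member probe sets passed in each comparison, where 0.00644% of all probe sets passed for L vs M, 0.0129% for M vs H and 0.0354% for L vs H. In WAT 0 of 4 tested member probe sets passed and in BAT 0 of 5, of which 1, for Bdh1, stayed at the lowest value and could not have passed, where 0% of all tested probe sets passed in either tissue. At an unadjusted p under 0.05 the counts were 1 of 6 in liver L vs M (Aacs, against 4.03% of all), 0 of 6 in M vs H (5.89%), 0 of 6 in L vs H (9.05%), 1 of 4 in WAT (Aacs, 7.82%) and 2 of 5 in BAT (Aacs and Oxct1, 7.27%). With so few members, these counts are given as a description.

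Rank products likewise called 0 member probe sets in all 5 diet comparisons at a false discovery rate under 0.05, where it called 0.383% of all probe sets in liver L vs M, 0.763% in M vs H, 1.39% in L vs H, 0.795% in WAT and 1.95% in BAT. These counts are over the varying probe sets. With the probe sets that hold 1 value ranked too, Aacs was called lower in WAT (false discovery rate 0.0395), as were 334 of 31042 probe sets (1.08%). The 31042 include 25762 that cannot show a difference, so this share cannot be set beside those over the varying probe sets. The groups did not overlap for Aacs in liver L vs M and in WAT, and overlapped for all other members that could be tested. Of all tested probe sets, 1.02% did not overlap in liver L vs M, 2.94% in M vs H, 3.06% in L vs H, 2.69% in WAT and 2.34% in BAT. The liver comparisons share the L-, M- or H-group arrays with one another.

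**Figure D4:**
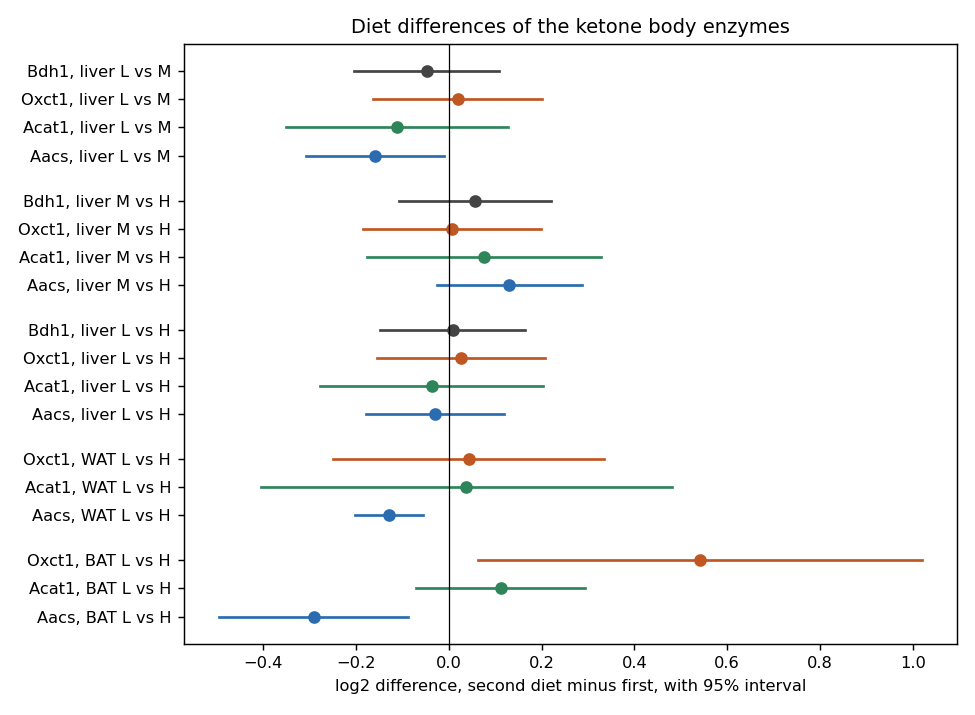
Log2 difference of each gene between diets (second diet minus first) with its 95% interval from limma, not adjusted for multiple tests. The intervals of Bdh1 and Acat1 include 0 throughout, and those of Aacs in liver L vs M, WAT and BAT and of Oxct1 in BAT do not.

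An interaction term in limma asked whether a diet difference was itself unequal in a pair of tissues. This fit had no term for rat, although the tissues came from the same rats. A fit with rat as a block is given in the closing section. In BAT against liver, the L to H difference of Oxct1 was larger in BAT by 0.52 (SE 0.21, adjusted p = 0.341), and that of Aacs was lower (-0.26, SE 0.11, adjusted p = 0.360). Both missed the threshold, and 0 of 5 member probe sets, the Bdh1 one at the lowest BAT value included, passed it, against 0.3% of all probe sets; 2 of 5 had an unadjusted p under 0.05, against 11.6%. In WAT against liver and in WAT against BAT, 0 of 4 member probe sets passed, Bdh1 not among them, against 0% and 0.0409% of all probe sets, and 0 of 4 had an unadjusted p under 0.05, against 7.95% and 8.84%. The tissues of a comparison were made by different methods, so their log2 differences need not be on the same scale.

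Genes whose values followed each member most closely were listed among named genes brighter than the tissue median. In liver, over 13 arrays, these were Pitpnb (r = 0.873, rho = 0.780), Atpaf2 (r = 0.833, rho = 0.731) and Ndufs1 (r = 0.822, rho = 0.823) for Bdh1. For Acat1 they were Wdr43 (r = 0.925, rho = 0.907), Eri3 (r = 0.869, rho = 0.856) and Ahcy (r = 0.849, rho = 0.841). Oxct1 was followed by Rars1 (r = 0.886, rho = 0.718), Klhdc1 (r = 0.871, rho = 0.658) and Anks1a (r = 0.833, rho = 0.729), and hepatic Aacs by Cops7b (r = 0.886, rho = 0.736), Psmd11 (r = 0.863, rho = 0.743) and Nfatc4 (r = 0.855, rho = 0.598). No gene was listed for more than 1 member in liver.

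Over 9 arrays, Aacs in WAT was followed by Tmbim6 (r = 0.962, rho = 0.917), Pxmp2 (r = 0.938, rho = 0.983) and Prxl2a (r = 0.907, rho = 0.917). In BAT it was followed by Slc48a1 (r = 0.963, rho = 0.904), Acsf2 (r = 0.921, rho = 0.937), an acyl-CoA synthetase, and Tmem50b (r = 0.918, rho = 0.895). Here r is Pearson's and rho Spearman's correlation across rats, diets included, and the genes are the 3 with the highest r among 9251 or 9252 genes in liver, 1946 in WAT and 6883 in BAT. The arrays of a tissue share their normalization, and no p is attached.

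Around the members, 13 genes could be followed from a list for fatty acid entry into mitochondria, ketone body synthesis, release and control. They were Cpt1a, Cpt2, Slc25a20, Acadm, Hadha, Hadhb, Acaa2, Bdh2, Slc16a6, Ppara, Fgf21, Sirt3 and Foxa2. These genes do not cover every step of ketone body synthesis. In liver the median L to H difference of this list was 0.02, against 0.00 over all probe sets. Of its genes 8 of 13 were positive, where 49.7% of all probe sets were. None passed limma in any diet comparison. Rank products called 1 of 13 in L vs M, against 0.383% of all probe sets, and 2 of 13 in L vs H, against 1.39%. It called none in M vs H (0.763%), in WAT (6 tested, 0.795%) or in BAT (12 tested, 1.95%). Fgf21, a hormone of the fasted liver, rose 1.80-fold from L to M by rank products (false discovery rate 0.00167, limma adjusted p = 0.9999), with means of 7.57 ± 0.58 (SD, n = 5) and 8.41 ± 0.48 (SD, n = 4). The H-group mean was lower than that of the M-group, at 7.87 ± 0.49 (SD, n = 4). Rank products called Fgf21 neither lower from M to H (false discovery rate 0.0567) nor higher from L to H (false discovery rate 0.150).

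From L to H in liver, Bdh2, a cytosolic dehydrogenase first described as acting on 3-hydroxybutyrate, rose 1.43-fold (false discovery rate 0.0376, limma adjusted p = 0.428). Foxa2, a transcription factor of the fasted liver, was called lower (log2 difference -0.42, false discovery rate 0.0492), with limma adjusted p = 0.813 and wide L-group values from 8.15 to 9.83. The other genes of this list were called nowhere in liver.

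A second list of 10 genes covered transport of ketone bodies and the use of acetyl-CoA units for lipids. Slc16a1, which carries ketone bodies across membranes, read 10.48 ± 0.19 (SD, n = 5), 10.20 ± 0.64 (SD, n = 4) and 10.14 ± 0.39 (SD, n = 4) in the L-, M- and H-group livers. It read 9.67 and 9.75 in WAT and 11.53 and 11.50 in BAT for the L- and H-groups, and was called nowhere. Acat2, the cytosolic counterpart of Acat1, rose in liver 1.53-fold from M to H (false discovery rate 0.0145, limma adjusted p = 0.208) and 1.40-fold from L to H (false discovery rate 0.0282, limma adjusted p = 0.187) by rank products. Srebf1, a transcription factor of lipid synthesis, rose 1.68-fold from L to H (false discovery rate 0.00204, limma adjusted p = 0.191). Its dimmer probe set rose by a log2 difference of 0.38 and was not called (false discovery rate 0.187). These were 1 of 10 genes in M vs H, against 0.763% of all probe sets, and 2 of 10 in L vs H, against 1.39%. The median L to H difference of this list in liver was 0.15, against -0.0006 over all probe sets. Of its genes 7 of 10 were positive, where 49.7% of all probe sets were.

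In the adipose tissues the same list ran lower, as the plot of pathway genes shows. The median L to H difference was -0.26 over 6 tested genes in WAT, against 0.02 over all probe sets, with 5 of 6 negative where 60.7% of all were positive, and -0.17 over 10 genes in BAT, against 0.00, with 8 of 10 negative where 53.6% of all were positive. Rank products called 2 of 6 lower in WAT, where it called 30 of 5280 probe sets lower, and 3 of 10 in BAT, where it called 261 of 20672. The list was chosen with earlier results of these data known, so these counts describe it and do not test it. In these comparisons limma called none of the list. The genes called make fatty acids rather than use ketone bodies. Fasn, fatty acid synthase, fell in WAT from 12.11 ± 0.27 (SD, n = 5) to 10.97 ± 0.52 (SD, n = 4), and Acaca, acetyl-CoA carboxylase, from 11.08 ± 0.44 (SD, n = 5) to 9.80 ± 0.54 (SD, n = 4), both by rank products, with limma adjusted p = 0.332 and 0.335. The dimmer Fasn probe set was called lower too, while the dimmer Acaca probe set missed the call (log2 difference -0.66, false discovery rate 0.0565).

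In BAT Acss2, which activates acetate, and Acly, ATP citrate lyase, fell by rank products with false discovery rates of 0.00299 and 0.00573. Both had a log2 difference of -0.73, with limma adjusted p = 0.206 for Acss2 and 0.313 for Acly. Acaca fell by 0.62 on its brighter probe set (false discovery rate 0.0161) and fell by 1.29 on the other (false discovery rate 0), and Fasn was called on the dimmer of its probe sets alone (log2 difference -0.77, false discovery rate 0.00242). Without rats H13 and H15 the false discovery rate was 0.0406 for Acss2, 0.0266 for that Fasn probe set, 0.00167 for the dimmer Acaca probe set, 0.151 for Acly and 0.117 for the brighter Acaca probe set. The diet difference in BAT was lower than in liver for Acly (log2 difference -0.99, limma adjusted p = 0.0359) and for Acss2 (log2 difference -0.77, limma adjusted p = 0.0448), but with rat as a paired block the adjusted p was 0.155 and 0.161. The Aacs averages in WAT and BAT had the same sign as these genes, and Aacs itself was not called over the varying probe sets. Ranked over all probe sets, it was called lower in WAT (false discovery rate 0.0395).

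**Figure D5:**
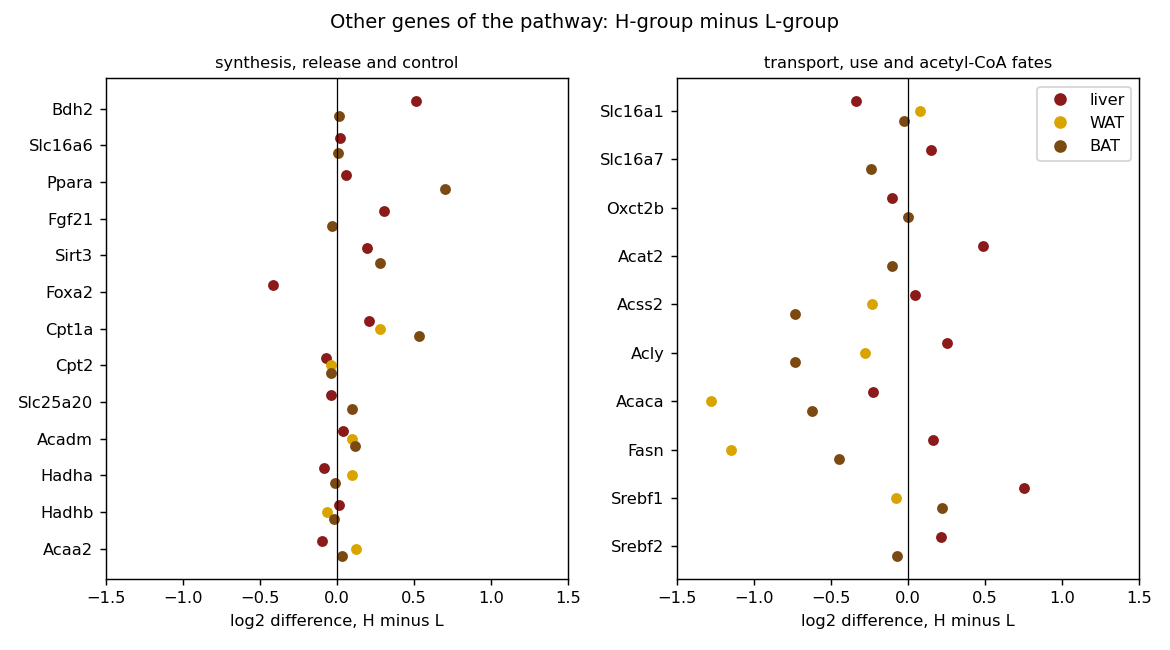
Log2 difference between the H- and L-group means for the other genes of the pathway in each tissue (1 point per gene and tissue, on its brightest probe set; genes holding 1 value in a tissue have no point). Points of the left list lie near 0 in most cases, while Acaca, Fasn, Acly and Acss2 on the right lie below 0 in WAT and BAT.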

How the data were processed

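The 31 arrays came from 13 rats, 9 of them with all tissues. The authors deposited log2 values made with RMA in liver, qFARMS in WAT and GCRMA in BAT, and these were used without further normalization. Arrays give no read depth, so their number and the background limit precision. Annotation was GEO's platform table; 57 control probe sets were left out, and 20826 probe sets carried 1 symbol. Some genes of the pathway are not reported here. Members and lists were chosen with earlier results of these data known. Other pathway genes were named where limma or rank products called them, besides Slc16a1.

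Probe sets varying by more than 1e-06 in a tissue were tested (31042, 5280 and 20672), unlike a test of all. Diets were compared with limma 3.58.1 (R 4.3.3, lmFit and eBayes, Benjamini-Hochberg over all tested probe sets) on all arrays of a tissue, and with rank products (Python 3.11.15, 100 permutations, false discovery rate under 0.05 for each direction). Both were tested on simulated data. Tissues were compared by the tissue by diet interaction in limma. The labels give the same rat numbers across tissues, so samples are paired: same-rat deviations correlated at 0.0399 to 0.484. Alternatives changed the test, threshold, filter, scaling, weights and rats. Promoters came from RefSeq (GRCr8).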

Additional observations from a re-analysis of the deposited data

Results flagged for a closer look

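In 2 of 34 groups of 4 or 5 arrays, 1 value stood apart from the others of its group by more than Dixon's limit; chance alone marks about 1 in 20 groups. Aacs in the liver of rat M9 was 4.42, against 4.65 for the nearest and 4.69 for the farthest rat of the M-group. The dimmer Acat1 probe set in the BAT of rat L1 was 8.87, against 8.37 for the farthest rat of the L-group. Rat L1 also had the highest Oxct1 of the L-group in BAT.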

How the results depend on the processing

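The 13 counts of member probe sets called (by limma and by rank products for each diet comparison, and by limma for each pair of tissues) were recomputed under 208 alternatives in all and stayed at 0 in 202 of them. At an unadjusted limma p under 0.05 the count was 1 in liver L vs M, 1 in WAT, 2 in BAT and 2 in BAT against liver. Rank products called 1 member probe set (Aacs) when all probe sets were tested in WAT, and 0 to 1 in BAT with each rat left out, the 1 being Oxct1 without rat L1.

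For the single values of the members, 20 differences were recomputed under 346 alternatives, and no adjusted p fell under 0.05. Some differences near 0 changed sign, and the cause was not tested. With array weights Oxct1 in WAT was -0.003 and Acat1 in WAT -0.067, the mean of both Bdh1 probe sets was -0.0065 from L to H, and Acat1 in BAT was -0.0039 without H13 and H15, an alternative chosen after seeing the data. With each rat left out in turn, the range in liver was -0.0856 to 0.0085 for Bdh1 L vs M, -0.0427 to 0.0667 for Bdh1 L vs H, -0.0749 to 0.0928 for Oxct1 L vs M, -0.0673 to 0.1004 for Oxct1 M vs H, -0.0059 to 0.056 for Oxct1 L vs H, -0.0204 to 0.130 for Acat1 M vs H, -0.133 to 0.0189 for Acat1 L vs H and -0.0725 to 0.022 for Aacs L vs H. In WAT it was -0.0325 to 0.110 for Oxct1 and -0.128 to 0.146 for Acat1. Aacs in WAT stayed between -0.144 and -0.110 and in BAT between -0.371 and -0.230, and Oxct1 in BAT between 0.42 and 0.685.

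With rat as a replicate block, the differences between BAT and liver were -0.26 for Aacs (limma adjusted p = 0.396) and 0.52 for Oxct1 (limma adjusted p = 0.402), and 0 member probe sets were called in any pair of tissues. The paired fit took the calls over all probe sets in BAT against liver from 62 to 2, with those of Acly and Acss2 among the calls lost. Testing the probe sets with 1 value too took the rank products calls from 42 to 574 in WAT and from 403 to 619 in BAT. The larger counts are the nearer to those that the paper reports for L vs H. The limma calls in WAT went from 0 to 17. In BAT this setting was also chosen after seeing the data.

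Every alternative to the rank products calls of other pathway genes called Srebf1 in liver and Acaca in WAT on their brighter probe sets. Fasn in WAT, on each probe set, and Acss2 in BAT were also called in every one. Bdh2 and Foxa2 were called in 4 of 11 each and Acat2 from L to H in 5 of 11. In WAT the 25762 probe sets with 1 value, Bdh1 included, and in BAT the lowest value bound what was measured.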
